A study of Homo sapiens with 8 samples.

Results

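The epidermal differentiation complex is a stretch of human chromosome 1 that groups genes for the outer layer of skin. Its genes were taken here by name on that chromosome: the late cornified envelope (LCE) and small proline-rich (SPRR) genes, the genes named S100A, and IVL, LOR, CRCT1, LELP1, HRNR, FLG, FLG2, RPTN, TCHH, TCHHL1 and CRNN. This gave 57 of the 57169 genes in the deposited table, and all 57 lay between positions 151982915 and 153632039 of chromosome 1 (GRCh38), a span of 1649 kb. The group was selected on measured values as well as by name: LCE1F and HRNR had stood out by their fold change of AFZC over 5-FU in HCT116 cells. Values for that comparison are therefore given as a description, with no test. Intervals beside its ratios cover counting error of the pooled counts only, leave out the spread between libraries, and are no test of a difference.

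RNA was measured in 2 established human colorectal cancer lines, HCT116 and SW620. SW620 comes from a metastasis in a lymph node. Cells received, for 24 h, AFZC or 5-fluorouracil (5-FU), each at its IC50 dose, which gave the groups HCT116 AFZC, HCT116 5-FU, SW620 AFZC and SW620 5-FU with 2 libraries in each. The labels do not define AFZC; the series title names a nanodrug, a metal-organic framework loaded with 5-FU and modified with an aptamer. Untreated cells were not analysed here, so AFZC is described relative to 5-FU only, and each line stands for itself. Whether the libraries within each group stem from different cultures is not stated in the labels, and p-values here reflect how far libraries of a group lay apart, a spread that may be technical.

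In stratified epithelium, keratinocytes that leave the basal layer replace their plasma membrane with the cornified envelope, a sheet of involucrin, loricrin, SPRR and LCE proteins that transglutaminases cross-link. Filaggrin, hornerin and trichohyalin are large fused-type S100 proteins, which join an S100 calcium-binding domain to long repeats, and filaggrin packs keratin filaments. The S100A genes encode small calcium-binding proteins that act on annexins, the cytoskeleton and extracellular receptors, and many of them are made in simple epithelia such as the colon as well as in skin.

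Library totals ran from 31991561 to 40590291 counts. Of the 57 genes, 31 had a count in at least 1 library and 26 had 0 counts in all 8. A gene with 0 counts in a library may still have been present at up to 3 counts, which was 0.0794 to 0.103 CPM (counts per 1000000, scaled with TMM factors), a limit of counting alone. The 26 were LCE2A, LCE2B, LCE2C, LCE2D, LCE3A, LCE3B, LCE3C, LCE3D, LCE4A, LCE5A, SPRR2B, SPRR2C, SPRR2E, SPRR2F, SPRR2G, SPRR3, SPRR4, TCHHL1, RPTN, CRNN, LOR, LELP1, S100A7A, S100A8, S100A12 and S100A15A. The filter on low counts was passed by 21 of the 57 genes: 12 of 17 S100A genes, 4 of 6 LCE1 genes, 0 of the 12 other LCE genes, 1 of 11 SPRR genes, 3 of 7 fused-type genes and, among the other 4 envelope genes, IVL. A gene could pass through the group in which it was high, so the count of genes that passed is no support for a difference.

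**Figure D1:**
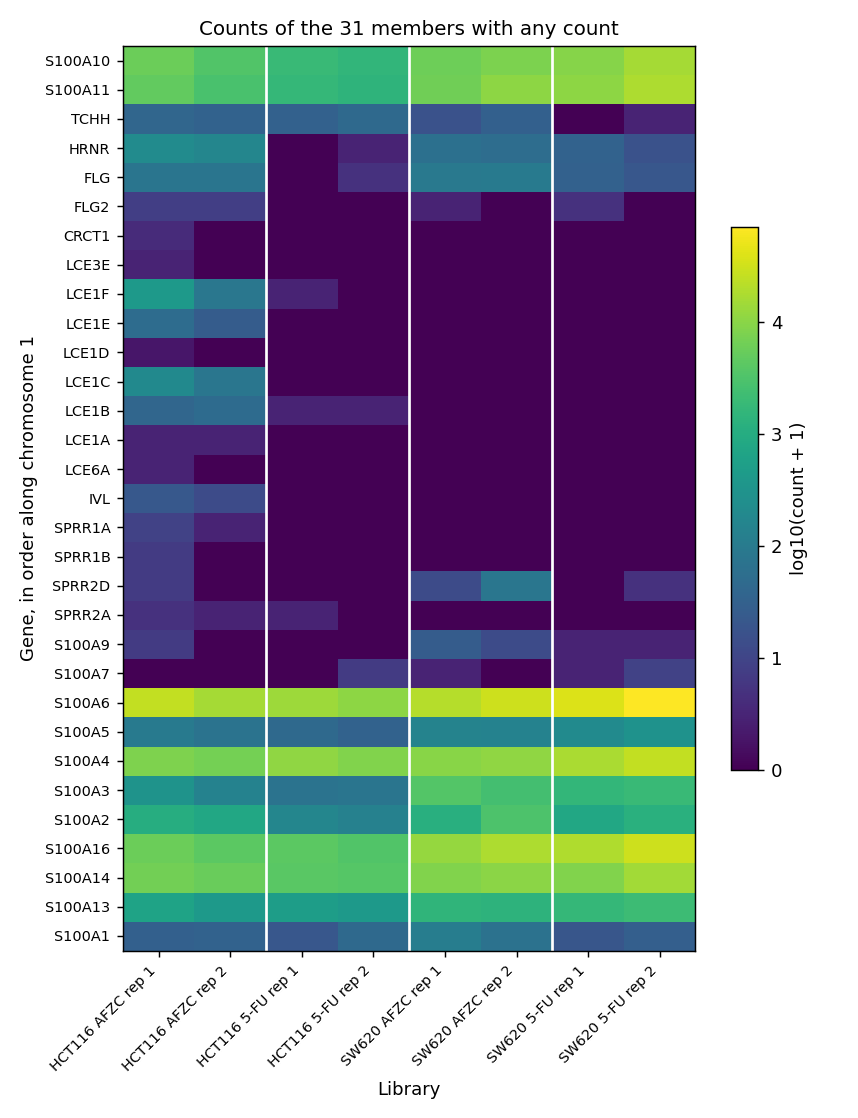
Heat map of log10(count + 1) for the 31 genes with any count (rows, in order along chromosome 1) in the 8 libraries (columns, 2 per group). Most S100A rows were filled in all libraries, while the LCE1 rows had 38 to 411 counts for LCE1F, LCE1C and LCE1B in HCT116 AFZC and at most 2 elsewhere.

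Most counts of the 57 genes were of S100A genes in every library. S100A genes took 0.159% and 0.119% of all counts in HCT116 AFZC, against 0.111% and 0.0882% in HCT116 5-FU. They took 0.215% and 0.283% in SW620 AFZC, against 0.323% and 0.444% in SW620 5-FU. The other 40 genes together held 1092 and 538 counts in HCT116 AFZC, against 37 and 53 in HCT116 5-FU. In SW620 they held 180 and 259 counts under AFZC, against 68 and 42 under 5-FU. Of these 40, 12 had counts in both libraries of HCT116 AFZC, 2 in HCT116 5-FU, 4 in SW620 AFZC and 2 in SW620 5-FU. The RNA was from whole cultures, so more cells that make a transcript and more transcript per cell cannot be told apart.

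The LCE1 genes, which encode late cornified envelope proteins cross-linked into the envelope from within, lie side by side next to IVL. LCE1F (chromosome 1, 152776372 to 152776728) had 411 and 82 counts in HCT116 AFZC, against 2 and 0 in HCT116 5-FU, and 0 in all SW620 libraries. Both AFZC libraries of HCT116 stood above both 5-FU libraries, although they differed from each other. The pooled counts, scaled for library size, were 235-fold higher under AFZC (95% exact binomial interval 64.7 to 1945), and leaving out 1 library gave ratios of 80 (AFZC replicate 1), 383 (AFZC replicate 2) and 116 (5-FU replicate 2). LCE1C had 199 and 80 counts in HCT116 AFZC, against 0 and 0 in HCT116 5-FU, which was at least 88.6-fold higher against a floor of 3 counts over the group. LCE1E had 50 and 25 counts in HCT116 AFZC, against 0 and 0 in HCT116 5-FU, at least 23.8-fold higher on the same floor. LCE1B had 38 and 48 counts in HCT116 AFZC, against 2 and 2 in HCT116 5-FU, a 20.5-fold difference (7.72 to 76.9). Counts of LCE1A were 2 and 2 in HCT116 AFZC, and LCE1D had 1 count in a single library of that group. No LCE1 gene had a count in any SW620 library. The groups of HCT116 did not overlap for these genes, except for LCE1D.

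LCE1 genes are close copies. Of the 50-base stretches in their annotated transcripts, 5.19% in LCE1F, 5.96% in LCE1B, 11.2% in LCE1E and 22.6% in LCE1C also occurred in other genes, most often another LCE1 gene, so a part of the counts could have been divided among them. The deposited LCE1F row covers 357 bases, and its first base lies 1232 bases downstream of the RefSeq start.

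IVL encodes involucrin, the scaffold on which the envelope is assembled. It had 21 and 12 counts in HCT116 AFZC, against 0 and 0 in HCT116 5-FU, at least 10.5-fold higher, and 0 in all SW620 libraries. From LCE1F to IVL, 6 of the 10 annotated genes in 136 kb had counts in both HCT116 AFZC libraries. From CRNN to LCE4A, the 300 kb just before them, 0 of 15 genes had counts in both libraries of any group, and their counts summed to 5 over the 8 libraries. These 2 windows were chosen after their values were seen.

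Beside these values, the 8 keratinocyte markers summed to 166 and 69.3 CPM in HCT116 AFZC, against 40.4 and 41.9 CPM in HCT116 5-FU, and to 74.9 and 77.8 CPM in SW620 AFZC, against 58.5 and 83.5 CPM in SW620 5-FU. KRT1 had 0 counts in all libraries, KRT5 stayed at or below 3.12 CPM and KRT15 made up 120 and 40.8 CPM of the HCT116 AFZC sums. In HCT116 5-FU, KRT15 had 9.07 and 9.17 CPM. Of the 4 keratinocyte markers that passed the filter, KRT5 and KRT15 had both HCT116 AFZC libraries above both HCT116 5-FU libraries, beside 28.1% of all genes, and 1 (KRT5) rose in SW620, beside 11.6% of all genes called higher there by edgeR at an adjusted p under 0.05. Their part in the LCE1, IVL and HRNR values was not tested.

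Promoters of LCE1F, LCE1E, LCE1C, IVL, HRNR and FLG, which were high in HCT116 AFZC, are shown. The starts of these LCE1 genes are near copies of one another, unlike those of IVL, HRNR and FLG. LCE1B had no RefSeq window, and the other LCE1 starts were not compared. Each sequence is the 130 bases before the RefSeq start (GRCh38.p14), 5′ to 3′ on the gene's strand. Capitals mark a TATA box (TATAAA), the AP-1 motif TGANTCA, or the octamer ATAAAAGG, which was picked after looking at the LCE1 starts and overlaps the TATA box in FLG.
LCE1F, chr1:152775010-152775139, forward strand: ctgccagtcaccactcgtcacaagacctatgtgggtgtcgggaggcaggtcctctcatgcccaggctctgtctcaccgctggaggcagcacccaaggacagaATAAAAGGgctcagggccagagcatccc
LCE1E, chr1:152786127-152786256, forward strand: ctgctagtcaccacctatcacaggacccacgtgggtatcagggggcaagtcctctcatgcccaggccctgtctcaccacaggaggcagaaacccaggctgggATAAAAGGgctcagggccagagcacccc
LCE1C, chr1:152806652-152806781, reverse strand: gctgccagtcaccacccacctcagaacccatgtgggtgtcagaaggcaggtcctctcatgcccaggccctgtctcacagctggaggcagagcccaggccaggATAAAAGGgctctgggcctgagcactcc
IVL, chr1:152908416-152908545, forward strand: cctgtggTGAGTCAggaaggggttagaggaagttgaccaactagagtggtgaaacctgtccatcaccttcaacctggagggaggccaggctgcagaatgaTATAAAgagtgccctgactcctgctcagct
HRNR, chr1:152224194-152224323, reverse strand: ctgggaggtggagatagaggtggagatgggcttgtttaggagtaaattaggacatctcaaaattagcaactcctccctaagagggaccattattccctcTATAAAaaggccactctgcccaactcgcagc
FLG, chr1:152325240-152325369, reverse strand: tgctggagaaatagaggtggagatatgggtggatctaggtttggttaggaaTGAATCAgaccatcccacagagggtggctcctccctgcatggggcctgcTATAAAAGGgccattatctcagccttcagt
The LCE1 stretches shown were identical to each other at 83.1% to 84.6% of positions, and LCE1F was identical to IVL, HRNR and FLG at 56.9% to 60.8%. For LCE1E and LCE1C the identity to IVL, HRNR and FLG was 56.2% to 65.4%. IVL, HRNR and FLG were identical to each other at 65.4% to 66.9%. RefSeq windows were found for 51 of the 57 genes, with 59 windows in all. Over the 250 bases before the start, on both strands, the AP-1 motif was in 19 of the 59 windows (32.2%), against 6.57% of 35116 human promoter windows of the same length. The TATA box was in 29 (49.2%), against 10.7% of all windows, and ATAAAAGG was in 12 (20.3%), against 1.27%. The octamer was picked from LCE1 starts, and its windows include those of LCE1F, LCE1E, LCE1D and LCE1C, so nothing is read from its share. The LCE1A window did not hold it. Beside FLG, the octamer overlaps the TATA box in TCHH, CRNN, LCE5A and SPRR2G, so the shares of these motifs are not separate results. The grainyhead-like motif AACCGGTT was in 0 windows of these genes, against 0.117% of all windows. A match describes the letters only, and of the 33 windows of genes with counts, 10 held the AP-1 motif and 13 the TATA box.

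Among the fused-type genes, HRNR (hornerin, chromosome 1, 152212082 to 152224193) had 219 and 170 counts in HCT116 AFZC, against 0 and 2 in HCT116 5-FU. It had 61 and 53 counts in SW620 AFZC, against 33 and 16 in SW620 5-FU. AFZC libraries were above 5-FU libraries in both lines without overlap. The ratio of pooled counts was 185 in HCT116 (51 to 1536), and 93.9 without replicate 1 of HCT116 5-FU. In SW620 the log2 fold change was 0.99 (SE 0.507), which missed the threshold (edgeR quasi-likelihood test, adjusted p = 0.199). The SW620 ratio of pooled counts was 2.03 (1.44 to 2.89), and 3.3 without replicate 1 and 1.41 without replicate 2 of SW620 5-FU.

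FLG encodes filaggrin. It had 74 and 75 counts in HCT116 AFZC, against 0 and 4 in HCT116 5-FU, and 89 and 99 in SW620 AFZC, against 31 and 20 in SW620 5-FU. The 2 AFZC groups were close to each other and each lay above its 5-FU group. In HCT116 the ratio was 35.5 (13.6 to 132), and 18 without replicate 1 of HCT116 5-FU. In SW620 the log2 fold change was 1.66 (SE 0.545, edgeR adjusted p = 0.0506), just over the threshold of 0.05. The adjusted p was under the threshold with DESeq2 (0.0241), relative log expression factors (0.0494), library sizes alone (0.0184), no filter (0.0171), the compared groups alone (0.034) or without replicate 1 (0.0362) or 2 (0.0353) of HCT116 5-FU. FLG-AS1, a transcript antisense to FLG named after its values were seen, had 98 counts over HCT116 AFZC, against 4 over HCT116 5-FU, a ratio of 23.3 (8.83 to 87.4). Exons of FLG and FLG-AS1 share 704 bases, 5.52% of the FLG exons, and libraries that do not keep the strand cannot tell the 2 transcripts apart there.

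TCHH encodes trichohyalin, a protein of the hair follicle's inner root sheath. It had 16 and 29 counts in SW620 AFZC, against 0 and 2 in SW620 5-FU, while HCT116 held 39 and 33 under AFZC, against 31 and 45 under 5-FU. The gene was near 0 in SW620 5-FU alone, and the HCT116 groups overlapped. In SW620 TCHH rose 19.6-fold by pooled counts (5.12 to 167, edgeR adjusted p = 0.00783), and the ratio was 10.4 without replicate 1 of SW620 5-FU and at least 6.1 without replicate 2. FLG2, a relative of filaggrin, had 7 and 7 counts in HCT116 AFZC, against 0 and 0 in HCT116 5-FU. In SW620 it had 2 and 0 counts under AFZC, against 4 and 0 under 5-FU.

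SPRR genes encode the proline-rich cross-bridges of the envelope, and most of them had no counts. SPRR2D had 12 and 78 counts in SW620 AFZC, against 0 and 4 in SW620 5-FU, and 6 and 0 in HCT116 AFZC, against 0 and 0 in HCT116 5-FU. The SW620 groups did not overlap, but replicate 2 of AFZC carried most of the counts. The SW620 ratio was 19.6 (7.39 to 73.4, edgeR adjusted p = 0.0569), and 5.25 without replicate 2 of SW620 AFZC, 33.8 without replicate 1 of SW620 AFZC and 10.4 without replicate 1 of SW620 5-FU. The adjusted p was under the threshold with library sizes alone (0.0296), no filter (0.000545), the compared groups alone (0.04), or without replicate 1 of SW620 AFZC (0.0248) or an HCT116 AFZC library (up to 0.0288). Of the SPRR2D transcript, 19.3% of 50-base stretches also occur in other genes, SPRR2A most often. SPRR1A had 8 and 2 counts in HCT116 AFZC, and 0 in the 6 other libraries. SPRR1B and SPRR2A had 6 and 6 counts over HCT116 AFZC, SPRR2A had 2 over HCT116 5-FU, and neither had any in SW620. CRCT1, LCE3E and LCE6A had 2 or 3 counts, in a single HCT116 AFZC library each.

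In HCT116, edgeR called 9.61% of all genes at an adjusted p under 0.05, 5.87% higher and 3.74% lower under AFZC, and calls of the epidermal differentiation genes are not given, since that comparison had a part in choosing them. Libraries did not overlap there for 14 of the 21 genes that passed the filter higher and 1 lower under AFZC, beside 28.1% and 27.4% of all genes, and nothing is read from these counts. In SW620, 2 of the 21 rose and 6 fell under AFZC, beside 18.6% of all genes called, 11.6% higher and 6.95% lower. Libraries did not overlap for 7 genes higher and 8 lower, beside 31.4% and 28.4% of all genes. LCE1F, LCE1E, LCE1C, LCE1B and IVL had 0 counts in SW620 and could not differ there. The other 16 of the 21 had 10 or more counts over the groups compared. Nothing is read from these shares beside the background. Without replicate 1 of SW620 AFZC or replicate 2 of SW620 5-FU the count of falls was 1, and the count of rises was 1 without replicate 1 or replicate 2 of SW620 5-FU and 4 without replicate 1 or replicate 2 of HCT116 AFZC. With library sizes alone in place of TMM scaling, the median of all genes moved up by 0.375 on the log2 scale in SW620. The split of these genes then became 6 higher and 3 lower, and that of all genes became 5141 higher and 445 lower, where TMM scaling gave 2482 higher and 1486 lower.

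All 6 genes that fell in SW620 under AFZC were S100A genes. Of the 12 S100A genes that passed the filter, 6 fell and 1 rose under AFZC, with a median log2 fold change of -0.738, against 0.026 over all genes. The 12 colorectal epithelium markers summed to 7942 and 4885 CPM in HCT116 AFZC, against 4329 and 3501 CPM in HCT116 5-FU, and to 5554 and 5105 CPM in SW620 AFZC, against 15233 and 16613 CPM in SW620 5-FU. KRT8, KRT18 and KRT19 made up most of these sums. Of the 11 markers that passed the filter, these 3 fell in SW620, beside 6.95% of all genes, and 1 rose, KRT20, beside 11.6%. KRT20 had 29.1 and 12.8 CPM in SW620 AFZC, against 2.31 and 2.42 CPM in SW620 5-FU. The median log2 difference over the 11 was -0.393 in SW620 and -0.00666 in HCT116. The part of these markers in the result was not tested.

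S100A6, which encodes calcyclin, held the top place per kilobase of exon in every group. Its level was 568 ± 160 CPM per kb in HCT116 AFZC and 356 ± 72 CPM per kb in HCT116 5-FU. In SW620 it was 720 ± 199 CPM per kb under AFZC and 1791 ± 561 CPM per kb under 5-FU (SD, n = 2 each). The next places in SW620 AFZC were taken by S100A11 with 347 ± 124, S100A4 with 280 ± 28.5 and S100A16 with 247 ± 67.6 CPM per kb, which did not differ beyond their spread. In HCT116 AFZC, S100A4 had 199 ± 16.8, S100A11 151 ± 47.2 and S100A14 128 ± 12.9 CPM per kb, and neighbours in this order did not differ beyond their spread. LCE1F reached 18.4 ± 17.1 CPM per kb in HCT116 AFZC, the same range as S100A2 with 16 ± 2.15 and, in the mean, above S100A13, S100A3 and S100A5. That value comes from division by a row of only 357 bases, and its libraries differed widely. Without scaling by length, LCE1F had 10.9 and 2.27 CPM there, against 27.4 and 22.6 CPM for S100A2 and 16.9 and 11.5 CPM for S100A13. HRNR had 0.546 ± 0.0799 and FLG 0.158 ± 0.00662 CPM per kb in the same group.

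**Figure D2:**
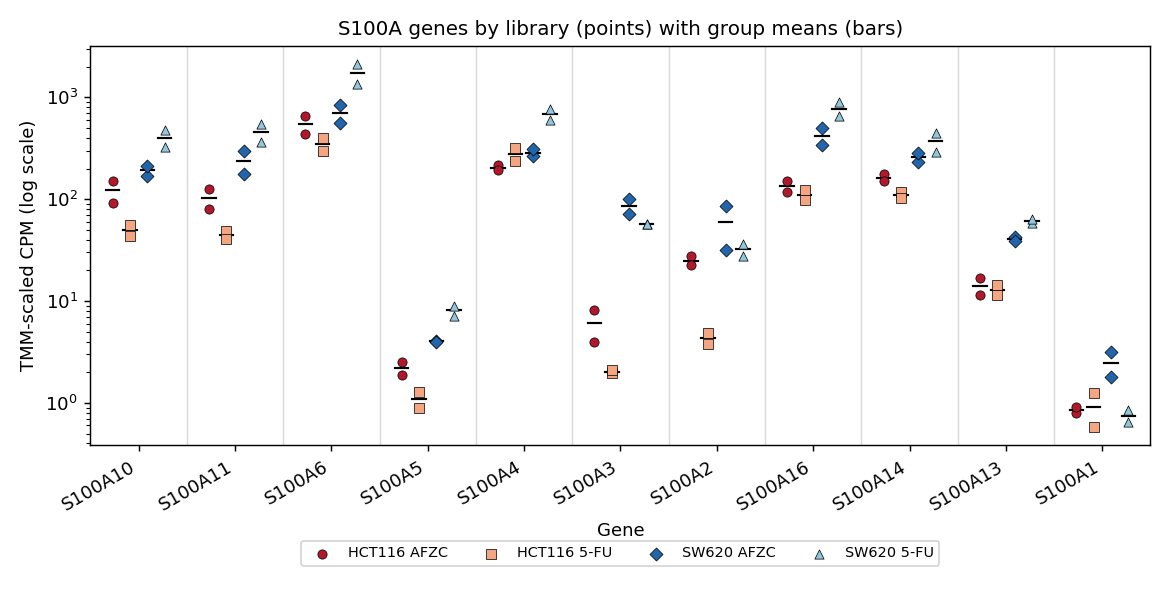
Level of 11 S100A genes in TMM-scaled CPM (log axis) for each library (points) with the group mean (bars), in order along the chromosome. S100A10, S100A11, S100A6 and S100A5 had their highest points in SW620 5-FU and their lowest in HCT116 5-FU, with both AFZC groups between.

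S100A4, whose protein binds non-muscle myosin, had 267 and 308 CPM in SW620 AFZC, against 595 and 773 CPM in SW620 5-FU. It fell by 1.25 on the log2 scale (SE 0.196, edgeR adjusted p = 0.00101), and the call held in every setting tried. In HCT116 it had 216 and 192 CPM under AFZC, against 321 and 239 CPM under 5-FU, a log2 difference of -0.45 (SE 0.194). S100A4 was lower under AFZC in both lines, without overlap of the libraries.

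S100A6 had 562 and 836 CPM in SW620 AFZC, against 1354 and 2125 CPM in SW620 5-FU. It fell there by 1.31 on the log2 scale (SE 0.282, edgeR adjusted p = 0.00787), but the adjusted p was 0.0559 without replicate 1 of SW620 AFZC and 0.0817 without replicate 2 of SW620 5-FU. In HCT116 it had 661 and 441 CPM under AFZC, against 395 and 296 CPM under 5-FU, a log2 difference of 0.67 (SE 0.279), or 0.345 without replicate 1 of HCT116 AFZC. AFZC libraries were therefore below 5-FU libraries in SW620 and above them in HCT116.

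S100A10 encodes the partner of annexin A2. It had 171 and 214 CPM in SW620 AFZC, against 324 and 474 CPM in SW620 5-FU, and fell by 1.05 on the log2 scale (SE 0.253, edgeR adjusted p = 0.0143). That call was lost without replicate 1 of SW620 AFZC (adjusted p = 0.114) or replicate 2 of SW620 5-FU (adjusted p = 0.136). In HCT116 it had 151 and 92.8 CPM under AFZC, against 56.1 and 43.1 CPM under 5-FU, a log2 difference of 1.29 (SE 0.256). S100A11, a binding partner of annexin A1, had 176 and 295 CPM in SW620 AFZC, against 363 and 550 CPM in SW620 5-FU. In HCT116 it had 125 and 79.7 CPM under AFZC, against 48.7 and 40.7 CPM under 5-FU. S100A10 and S100A11 thus lay in opposite order in the 2 lines, with no overlap in either. S100A11 fell by 0.95 in SW620 (SE 0.291, edgeR adjusted p = 0.0439) and was higher by 1.2 in HCT116 (SE 0.295). The SW620 call was lost with library sizes alone (adjusted p = 0.127), with the replicate number in the model (0.0606) and without replicate 1 of SW620 AFZC (0.226), replicate 2 of SW620 5-FU (0.308) or either HCT116 5-FU library (0.0698).

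S100A5 had 4.05 and 3.99 CPM in SW620 AFZC, against 7.19 and 8.97 CPM in SW620 5-FU, and 2.54 and 1.88 CPM in HCT116 AFZC, against 1.27 and 0.898 CPM in HCT116 5-FU. It fell by 1.01 in SW620 (SE 0.324, edgeR adjusted p = 0.0468), close to the threshold, and was higher by 1.03 in HCT116 (SE 0.353). The SW620 call was lost with library sizes alone (adjusted p = 0.177), with the replicate number in the model (0.0602) and without any 1 of the 4 SW620 libraries or either HCT116 5-FU library (up to 0.283). S100A16 had 338 and 501 CPM in SW620 AFZC, against 650 and 903 CPM in SW620 5-FU, and fell by 0.89 (SE 0.23, edgeR adjusted p = 0.0181). That call was lost with library sizes alone (adjusted p = 0.0911) and without replicate 1 of SW620 AFZC (0.118) or replicate 2 of SW620 5-FU (0.185). Its HCT116 libraries overlapped in part, with 150 and 119 CPM under AFZC and 124 and 97.2 CPM under 5-FU, a log2 difference of 0.28 (SE 0.229). S100A14 had 234 and 283 CPM in SW620 AFZC, against 290 and 450 CPM in SW620 5-FU, and its difference of -0.52 (SE 0.205) missed the threshold (edgeR adjusted p = 0.099), but not with no filter (0.022) or without replicate 1 of SW620 5-FU (0.0336). In HCT116 it had 175 and 151 CPM under AFZC, against 119 and 103 CPM under 5-FU, a log2 difference of 0.55 (SE 0.206). S100A13, whose product takes part in the non-classical export of growth factors, had 42.6 and 38.6 CPM in SW620 AFZC, against 57.8 and 64.2 CPM in SW620 5-FU, a difference of -0.59 (SE 0.201) that missed the threshold (edgeR adjusted p = 0.0595). The adjusted p was under it with no filter (0.025), DESeq2 (0.0439), the compared groups alone (0.0301) or without an HCT116 AFZC library (up to 0.0259). In HCT116 its groups overlapped, with 16.9 and 11.5 CPM under AFZC and 14.4 and 11.4 CPM under 5-FU. The log2 difference there was 0.135, or -0.177 without replicate 1 of HCT116 AFZC.

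S100A1, best known for calcium handling in heart muscle, went the other way. It had 3.15 and 1.81 CPM in SW620 AFZC, against 0.654 and 0.846 CPM in SW620 5-FU, and rose by 1.72 on the log2 scale (SE 0.516, edgeR adjusted p = 0.0354). The call was lost without replicate 1 of SW620 AFZC (adjusted p = 0.212), replicate 1 of SW620 5-FU (0.156) or replicate 2 of SW620 5-FU (0.123). Its exons share 235 bases with S100A13 (7.76% of its length), 320 with AL162258.2 (10.6%) and 34 with AL162258.1 (1.12%), all on the other strand. Reads cannot be assigned to a strand there. S100A13 exons share 536 bases (24.2%) with AL162258.1 on the same strand. Of the 50-base stretches, 25.7% in S100A13 and 13.6% in S100A1 also occur in other genes. In HCT116 the S100A1 groups overlapped, with 0.794 and 0.915 CPM under AFZC and 0.576 and 1.26 CPM under 5-FU.

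S100A2, a keratinocyte S100 gene, had 27.4 and 22.6 CPM in HCT116 AFZC, against 4.9 and 3.82 CPM in HCT116 5-FU, a log2 difference of 2.52 (SE 0.422). In SW620 it had 32 and 86.5 CPM under AFZC, against 27.7 and 36.5 CPM under 5-FU. The HCT116 groups were clearly apart, whereas the SW620 groups overlapped. The SW620 difference of 0.88 (SE 0.386) missed the threshold (edgeR adjusted p = 0.15), was -0.00587 without replicate 2 of SW620 AFZC, and was 1.44 without replicate 1 of SW620 AFZC (adjusted p = 0.000757). The adjusted p was also under the threshold with library sizes alone (0.0252), no filter (0.000914) and DESeq2 (0.0443). The promoter of S100A2 that holds an AP-1 match, in capitals, is 1 of 2 RefSeq starts of the gene in the table.
S100A2, chr1:153565845-153565974, reverse strand: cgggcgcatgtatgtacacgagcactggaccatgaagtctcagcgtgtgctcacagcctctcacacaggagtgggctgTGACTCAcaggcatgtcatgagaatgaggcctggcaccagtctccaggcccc
S100A3, a gene of the hair cuticle, had 8.21 and 3.96 CPM in HCT116 AFZC, against 1.96 and 2.1 CPM in HCT116 5-FU, a log2 difference of 1.58 (SE 0.315), or 0.954 without replicate 1 of HCT116 AFZC. In SW620 it had 101 and 70.9 CPM under AFZC, against 56.9 and 57.5 CPM under 5-FU, a difference of 0.59 (SE 0.267) that missed the threshold (edgeR adjusted p = 0.154). The adjusted p was under it with library sizes alone (0.0194), no filter (0.0186), the compared groups alone (0.0488) or without an HCT116 AFZC library (up to 0.0295). S100A3 libraries did not overlap in either line.

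S100A8 and S100A9 encode the subunits of calprotectin, the main cytosolic protein of neutrophils. S100A8 had 0 counts in all libraries. S100A9 had 25 and 12 counts in SW620 AFZC, against 2 and 2 in SW620 5-FU, and 6 and 0 in HCT116 AFZC, against 0 and 0 in HCT116 5-FU. The SW620 libraries did not overlap, the ratio was 8.05 (2.89 to 31.1), and the difference missed the threshold (edgeR adjusted p = 0.116), but not with the compared groups alone (0.0456). The ratio was 5.2 without replicate 1 of SW620 AFZC. The 8 neutrophil and monocyte markers summed to 44.3 and 19.7 CPM in SW620 AFZC, against 5.82 and 8 CPM in SW620 5-FU, and to 9.35 and 7.65 CPM in HCT116 AFZC, against 0.634 and 1.18 CPM in HCT116 5-FU. LYZ made up 40.4 and 15.7 CPM of the SW620 AFZC sums, and ITGAM 8.84 and 7.32 CPM of the HCT116 AFZC sums. Of the 4 markers that passed the filter, LYZ and MPO rose in SW620, beside 11.6% of all genes. MPO had 2.19 and 3.04 CPM in SW620 AFZC, against 0.138 and 0 CPM in SW620 5-FU. All 4 were higher in SW620 AFZC without overlap, beside 31.4% of all genes. Among the others, FCGR3B had 0 counts in every library, and PTPRC and CSF3R did not pass 0.112 CPM in any. SPI1 had 0.422 and 0.0279 CPM in SW620 AFZC, against 0 and 0 CPM in SW620 5-FU. In HCT116 it had 0 and 0 CPM under AFZC, against 0.173 and 0.112 CPM under 5-FU. The part of these markers in the S100A9 values was not tested. S100A7, psoriasin in skin, had 2 and 0 counts in SW620 AFZC, against 2 and 8 in SW620 5-FU, and 0 and 0 in HCT116 AFZC, against 0 and 6 in HCT116 5-FU.

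**Figure D3:**
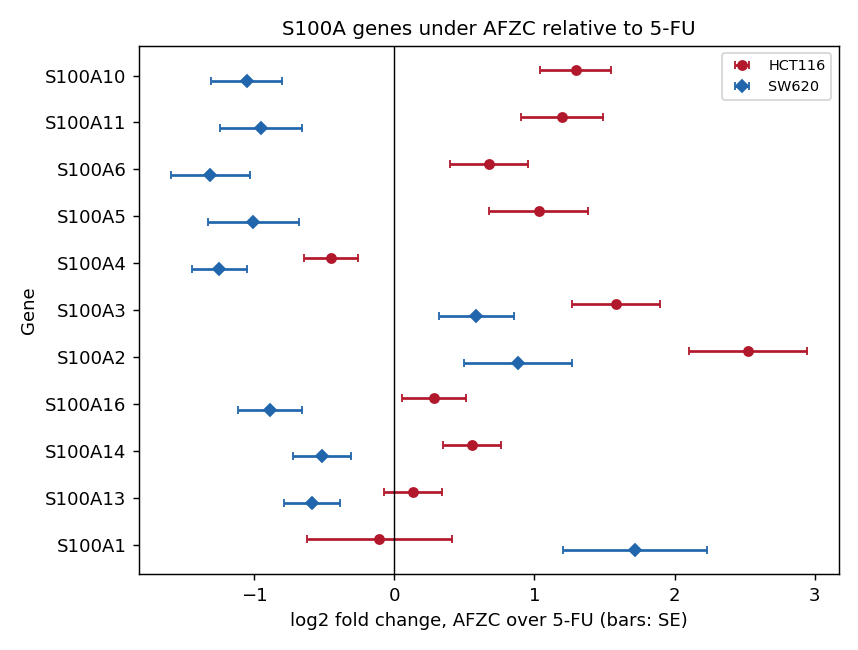
Log2 fold change of AFZC over 5-FU for 11 S100A genes, with SE bars, in HCT116 (circles) and SW620 (diamonds). S100A10, S100A11, S100A6, S100A5, S100A14, S100A16 and S100A13 lay above 0 in HCT116 and below 0 in SW620, S100A4 lay below 0 in both, and the difference between the lines was not tested. The S100A13 value in HCT116 changed sign without replicate 1 of HCT116 AFZC.

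More genes were called between the lines than between the agents. Under 5-FU, 12 of the 21 genes that passed the filter were higher in SW620 than in HCT116 and 1 was lower, beside 54.8% of all genes called, 26.5% higher and 28.2% lower. Only 14 of the 21 had 10 or more counts over the groups compared, and no call is given for the others. Libraries did not overlap for 13 genes higher and 2 lower in SW620, beside 39.0% and 41.0% of all genes. Of the 12 S100A genes that passed, 10 were called higher in SW620, with a median of 2.85 on the log2 scale, against -0.0393 over all genes. This was not particular to them: of the 11 colorectal epithelium markers that passed, 10 were called higher and 0 lower, with a median of 2.52. The part of these markers in the S100A values was not tested. Library sizes alone moved the median of all genes by -0.301, and all 13 calls held in every setting tried. This comparison and that of AFZC against 5-FU in SW620 share the SW620 5-FU libraries. The line comparison also uses the HCT116 5-FU libraries, against which LCE1F and HRNR had stood out. Low counts there favoured that choice, so the call of HRNR is no support for a difference between the lines.

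S100A3 had 56.9 and 57.5 CPM in SW620 5-FU, against 1.96 and 2.1 CPM in HCT116 5-FU, a log2 difference of 4.81 (SE 0.329, edgeR adjusted p = 2.37e-07). S100A11 differed by 3.35 (SE 0.317, edgeR adjusted p = 6.51e-06) and S100A10 by 3.01 (SE 0.271, edgeR adjusted p = 2.35e-06). The 7 other S100A genes called, S100A2, S100A4, S100A5, S100A6, S100A13, S100A14 and S100A16, differed by 1.29 to 2.90, with adjusted p-values up to 0.000349. Every one of these 10 genes was higher in both SW620 libraries than in both HCT116 libraries. S100A1 overlapped between the lines, with 0.654 and 0.846 CPM in SW620 5-FU and 0.576 and 1.26 CPM in HCT116 5-FU, a difference of -0.29 (SE 0.528, edgeR adjusted p = 0.663).

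**Figure D4:**
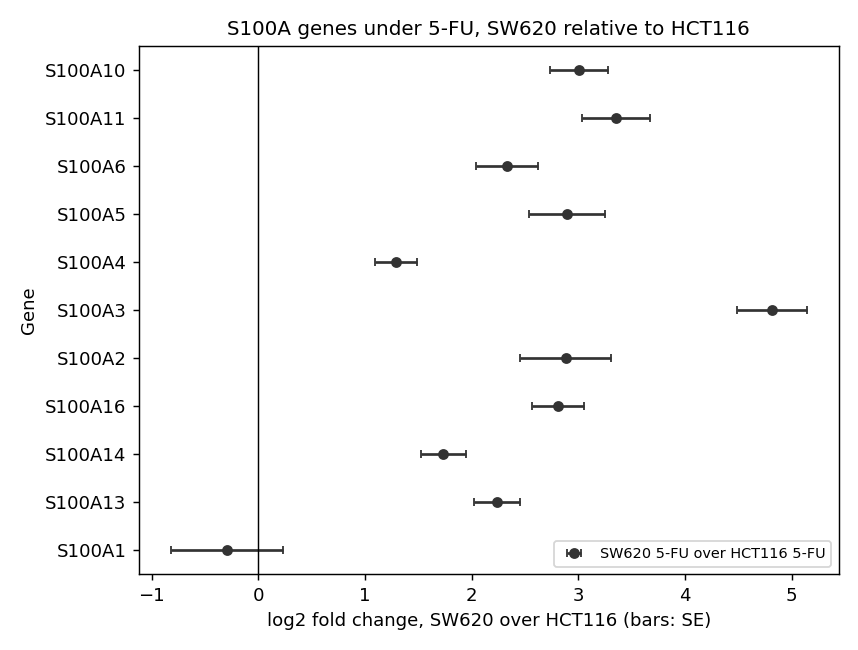
Log2 fold change of SW620 over HCT116 under 5-FU for 11 S100A genes, with SE bars. S100A3 was farthest from 0 at 4.81, 9 more lay between 1.29 and 3.35, and the bar of S100A1 crossed 0.

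The fused-type genes split between the lines. HRNR had 33 and 16 counts in SW620 5-FU, against 0 and 2 in HCT116 5-FU, a ratio of 27.7 (7.28 to 235). It is among the 12 genes called higher, but its p-value is not given, since low HCT116 5-FU counts had a part in choosing it. FLG had 31 and 20 counts in SW620 5-FU, against 0 and 4 in HCT116 5-FU, a ratio of 14.4 (5.3 to 55, edgeR adjusted p = 0.00123). TCHH had 0 and 2 counts in SW620 5-FU, against 31 and 45 in HCT116 5-FU, a ratio of 0.0298 (0.00354 to 0.111, edgeR adjusted p = 0.000433). HRNR and FLG were thus higher in SW620 and TCHH lower. Without 1 library the HRNR ratio ranged down to 14 (without replicate 1 of HCT116 5-FU), that of FLG to 7.31 (without the same library), and that of TCHH up to 0.0559 (without replicate 1 of SW620 5-FU).

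Genes outside the complex that assemble the envelope were read from a list of 23, of which 17 passed the filter. Under AFZC, 3 of the 17 rose and 1 fell in SW620, beside 11.6% and 6.95% of all genes, and between the lines 3 were higher in SW620 and 7 lower, beside 26.5% and 28.2%. The rises and falls in SW620 were near the background. Their median log2 fold change was 0.374 in SW620 under AFZC, against 0.026 over all genes. KLK5, a protease that loosens corneocytes, had 0.956 and 1.37 CPM in SW620 AFZC, against 0 and 0.121 CPM in SW620 5-FU, a ratio of 18.1 by pooled counts (6.8 to 67.8, edgeR adjusted p = 0.00756). CSTA, the protease inhibitor cystatin A and a part of the envelope, had 0.506 and 0.864 CPM in SW620 AFZC, against 0 and 0 in SW620 5-FU, at least 14.2-fold higher (edgeR adjusted p = 0.000538). Both genes were near or at 0 in SW620 5-FU. CSTA had 12 and 9.59 CPM in HCT116 5-FU, so under 5-FU it was at least 223-fold lower in SW620 (edgeR adjusted p = 1.08e-07). SPINK5, which encodes an inhibitor of KLK5, was 63.4-fold higher in SW620 5-FU by counts of 112 against 2 in HCT116 5-FU (17.1 to 530, edgeR adjusted p = 7.66e-05). TGM1, the transglutaminase of the upper epidermis, had 1.12 and 0.948 CPM in SW620 AFZC, against 1.82 and 1.21 CPM in SW620 5-FU, and did not pass the test (edgeR adjusted p = 0.389). In HCT116, TGM1 had 7.2 and 4.68 CPM under AFZC, against 1.5 and 1.71 CPM under 5-FU, and KLK5 had 33.8 and 11.7 CPM, against 2.48 and 2.16 CPM. CSTA had 14.5 and 18.6 CPM under AFZC there, against 12 and 9.59 CPM under 5-FU. EVPL went the other way, with 104 and 135 CPM, against 192 and 219 CPM. Libraries of HCT116 did not overlap for 12 of the 17 genes higher and 2 lower, beside 28.1% and 27.4% of all genes, and nothing is read from these counts. ABCA12, the lipid transporter of lamellar granules, named after its values were seen, had 33.4 and 49.1 CPM in HCT116 AFZC, against 1.38 and 2.55 CPM in HCT116 5-FU.

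**Figure D5:**
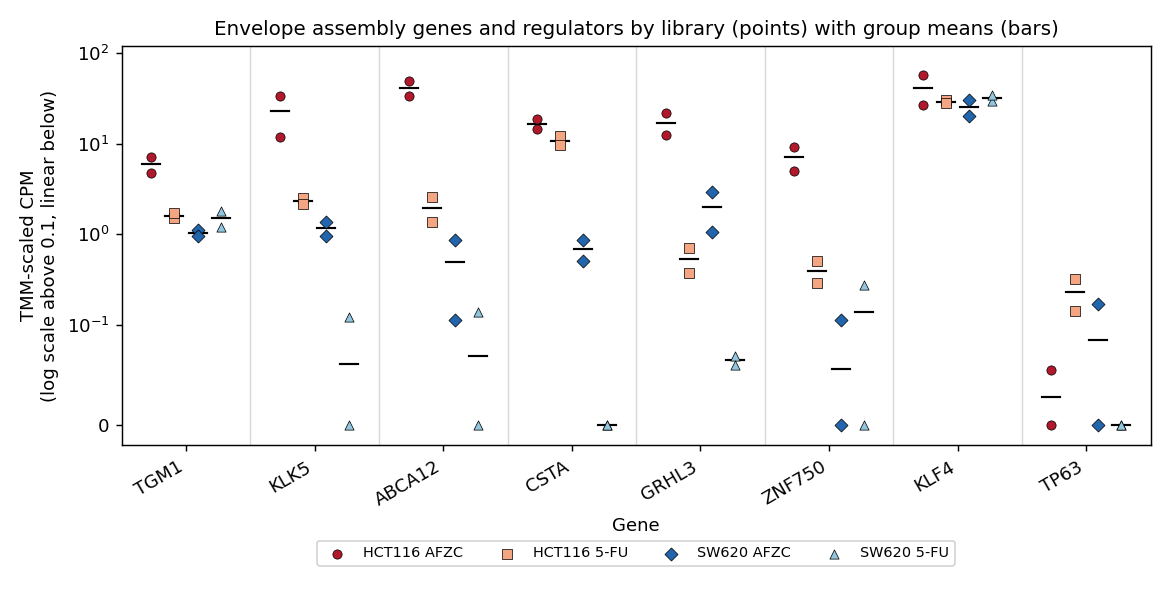
Level of 4 envelope assembly genes and 4 regulators in TMM-scaled CPM for each library (points) with the group mean (bars), on an axis that is logarithmic above 0.1 and linear below. TGM1, KLK5, ABCA12, CSTA, GRHL3 and ZNF750 were higher in both HCT116 AFZC libraries than in both HCT116 5-FU libraries, and TP63 stayed at or below 0.317 CPM in all libraries.

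Of 19 transcriptional regulators of epidermal differentiation, 17 passed the filter. In SW620, 3 rose and 1 fell under AFZC, near the background of 11.6% and 6.95% of all genes, with a median log2 fold change of -0.128. GRHL3, a grainyhead-like factor needed for the skin barrier in mice, had 2.9 and 1.06 CPM in SW620 AFZC, against 0.0688 and 0.0604 CPM in SW620 5-FU, a ratio of 30.7 by pooled counts (11.7 to 114, edgeR adjusted p = 0.000831). In HCT116 GRHL3 had 21.8 and 12.4 CPM under AFZC, against 0.374 and 0.701 CPM under 5-FU. AFZC libraries were above 5-FU libraries in both lines. ZNF750, a zinc-finger factor of terminal differentiation, had 9.22 and 4.93 CPM in HCT116 AFZC, against 0.288 and 0.505 CPM in HCT116 5-FU, and at most 0.275 CPM in SW620, where its difference under AFZC missed the threshold (edgeR adjusted p = 0.598). KLF4 had 56.9 and 26.4 CPM in HCT116 AFZC, against 30 and 27.8 CPM in HCT116 5-FU, which overlapped. In SW620 it had 20.4 and 30.5 CPM under AFZC, against 29.5 and 34.4 CPM under 5-FU (edgeR adjusted p = 0.514), a difference below 0 with TMM scaling and above 0 with library sizes alone. TP63, the master regulator of stratified epithelium, had 2 counts over HCT116 AFZC, against 16 over HCT116 5-FU, and did not pass the filter. Between the lines under 5-FU, 8 regulators were higher in SW620 and 2 lower, beside 26.5% and 28.2% of all genes, PRDM1 by 3.21 (SE 0.318, edgeR adjusted p = 5.19e-06) and GRHL3 by -3.00 (SE 0.834, edgeR adjusted p = 0.00852). The GRHL3 difference was not called without replicate 2 of HCT116 5-FU (adjusted p = 0.0662) or replicate 2 of SW620 5-FU (0.0621). TGM1, KLF4 and ZNF750 missed the threshold between the lines (edgeR adjusted p-values 0.87, 0.719 and 0.205).

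Among 8 binding partners and receptors of S100 proteins, 1 rose and 2 fell in SW620 under AFZC, beside 11.6% and 6.95% of all genes. ANXA2, the annexin that binds S100A10, had 730 and 955 CPM in SW620 AFZC, against 1540 and 2084 CPM in SW620 5-FU, and fell by 1.10 (SE 0.218, edgeR adjusted p = 0.0042). In HCT116 it had 1879 and 1579 CPM under AFZC, against 1073 and 873 CPM under 5-FU. ANXA2 was thus below its 5-FU level in SW620 and above it in HCT116, the order also seen for S100A10. ANXA1 rose in SW620 by 1.06 (SE 0.256, edgeR adjusted p = 0.0138), with 9.59 and 14.6 CPM under AFZC, against 4.37 and 7.19 CPM under 5-FU. Under 5-FU it was far lower in SW620 than in HCT116, where it had 252 and 226 CPM (log2 difference -5.36, SE 0.286, edgeR adjusted p = 2.15e-08). The ANXA2 call was lost without replicate 2 of SW620 5-FU (adjusted p = 0.062), and that of ANXA1 without replicate 2 of SW620 AFZC (0.0711) or replicate 1 of SW620 5-FU (0.108). TLR4, a receptor for calprotectin, had 79 counts over SW620 5-FU, against 0 over HCT116 5-FU, at least 29.8-fold higher (edgeR adjusted p = 0.000608). S100P, an S100 gene outside chromosome 1, fell in SW620 by 1.31 (SE 0.164, edgeR adjusted p = 0.000211), with 110 and 134 CPM under AFZC, against 283 and 324 CPM under 5-FU. Under 5-FU it was 1341-fold higher in SW620 than in HCT116 by its counts (825 to 2346, edgeR adjusted p = 1.71e-10). Of the 4 S100 genes outside chromosome 1, only S100P was called in either comparison, and 2 passed the filter.

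Genes interspersed in the same stretch but outside the name rule were mostly silent: of 32, 4 passed the filter, and 5 had counts in both libraries of HCT116 AFZC, 3 in HCT116 5-FU, 6 in SW620 AFZC and 4 in SW620 5-FU. Of 8 listed neighbours, TDRKH rose in SW620 by 0.84 (SE 0.204, edgeR adjusted p = 0.013), a call lost without replicate 1 of SW620 AFZC or either SW620 5-FU library (adjusted p up to 0.0877). C2CD4D was higher in SW620 5-FU than in HCT116 5-FU, with 113 against 7 counts (ratio 18.3, 8.58 to 46.5, edgeR adjusted p = 5.6e-05).

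Markers of other cell types were read beside these values. The 6 fibroblast markers summed to 44.5 to 81.4 CPM over the 8 libraries. Of the 3 that passed the filter, PDGFRB rose in SW620, beside 11.6% of all genes. It had 9.9 and 9.14 CPM under AFZC there, against 2.1 and 2.29 CPM under 5-FU. In HCT116 it had 1.19 and 1.05 CPM under AFZC, against 0.461 and 0.449 CPM under 5-FU. LUM had 43.2 and 20.9 CPM in SW620 AFZC, against 27.7 and 30.1 CPM in SW620 5-FU, and 0 CPM in all HCT116 libraries. Of the colorectal epithelium markers, VIL1, CEACAM5 and LGALS4 reached at most 1.96 CPM in HCT116, and CDX1 at most 0.225 CPM in any library.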

How the data were processed

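The deposited file holds raw counts by gene symbol, 1 column for each of 8 libraries, in the layout of featureCounts per the file headers. Tools in the submitters' processing notes are HISAT2 and STAR (aligners), featureCounts, edgeR, DESeq2, FastQC, cutadapt and Trimmomatic, and the build is GRCh38. Their order is not stated, so which aligner made the counts is not given in the sources used here. Per the labels' protocols, poly(A) RNA was selected and the strand was not kept.

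Each column matched 1 library by name. No library was a copy of another: within groups, chi-square over degrees of freedom was 23.26 to 58.67. EdgeR 4.0.16 (R 4.3.3) with filterByExpr (minimum count 10) kept 21378 of 57169 genes, with TMM factors of 0.81587 to 1.1115. A quasi-likelihood model with 4 group means and robust dispersion had 4 residual degrees of freedom. Two-sided p-values were adjusted over all genes tested (Benjamini-Hochberg, threshold 0.05). The SE is the log2 fold change over the square root of F. CPM is the count per 1000000 of the scaled library total, given as mean ± SD. DESeq2 1.42.0, other scalings, no filter, the compared groups alone, the replicate number as a block and leaving out each library were alternatives. In a single run on simulated counts the share of false calls was above the threshold and a part of the 2-fold changes was missed. A far smaller share of genes was changed there than was called in SW620, so the run gives no rate of false calls for these data. Calls with an adjusted p near 0.05 are taken as uncertain.

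Ratios of few counts pool the libraries of a group and carry a 95% exact binomial interval (Clopper-Pearson). For each gene with 1 count there were 1.68 to 1.84 with 2 counts, the pattern of counting both mates, so intervals and floors are too narrow and cover counting error only. Promoter windows are from RefSeq (GRCh38.p14), and shared stretches were read from GENCODE release 29 transcripts.

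The members, the lists and the tests were chosen with earlier results of these data known. Every gene that passed the filter is described. Members that did not pass are given with all counts where they had 10 or more in total. From each list outside the complex, the 2 called genes with the largest change in each tested comparison are named, with TGM1, TP63, KLF4, GRHL3 and ZNF750 whatever their result. A regulator gene that this rule selects is counted in its list and not reported here.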

Additional observations from a re-analysis of the deposited data

Results flagged for a closer look

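S100A10, S100A11, S100A6, S100A5 and S100A14 had both AFZC libraries below both 5-FU libraries in SW620 and above them in HCT116. Of all genes, 28.4% were lower under AFZC in SW620 and 28.1% higher in HCT116 without overlap. The share of all genes with both was not determined, so whether the pattern exceeds the background was not tested. The log2 fold change of AFZC over 5-FU in SW620 minus that in HCT116 was -2.35 for S100A10, -2.15 for S100A11, -2.04 for S100A5, -1.99 for S100A6 and -1.07 for S100A14. These differences were not tested, because the HCT116 comparison had a part in choosing the genes. S100A16 and S100A13 also had a difference above 0 in HCT116 and below 0 in SW620, with HCT116 libraries that overlapped. The S100A13 difference in HCT116 was 0.135 and changed sign with 1 library left out. It was -0.177 without replicate 1 of HCT116 AFZC and -0.0424 without replicate 2 of HCT116 5-FU, so its direction there is open. The 12 colorectal epithelium markers, mostly KRT8, KRT18 and KRT19, summed to 5554 and 5105 CPM in SW620 AFZC, against 15233 and 16613 CPM in SW620 5-FU, and to 7942 and 4885 CPM in HCT116 AFZC, against 4329 and 3501 CPM in HCT116 5-FU. KRT20 was higher in SW620 AFZC, and the median log2 difference of the 11 markers that passed the filter was -0.00666 in HCT116. Their part in the result was not tested. Groups of 2 libraries allow no test of whether 1 library stands apart.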

How the results depend on the processing

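The SW620 comparison of AFZC with 5-FU depended on the scaling. With library sizes only, 5141 genes were called higher and 445 lower, and of the members 6 were called higher and 3 lower. Members called higher numbered 6 with no filter on low counts, 4 with DESeq2 and 6 when only the compared groups were fitted. Leaving out 1 library gave 1135 to 2703 genes higher, 448 to 1741 lower, 1 to 4 members higher and 1 to 7 lower. In HCT116, 1306 genes were called lower with no filter. Leaving out 1 library there gave 216 to 1509 genes higher and 89 to 1215 lower. Between the lines under 5-FU, leaving out 1 library gave 12 members higher and 1 lower each time. KLF4 changed sign with library sizes only, at 0.0481 in SW620 under AFZC and -0.159 between the lines. Leaving out 1 library changed the sign of some log2 fold changes that missed the threshold. S100A2 in SW620 ranged from -0.00587 to 1.44. ZNF750, with 4 to 8 counts a group in SW620, ranged from -5.21 to 4.08 there, and between the lines S100A1 ranged from -0.746 to 0.36 and TGM1 from -0.412 to 0.187. In HCT116, where members were not tested, S100A13 ranged from -0.177 to 0.361, S100A1 from -0.563 to 0.546 and TCHH from -0.375 to 0.105. KLF4 ranged from -0.141 to 0.954 there. The cause of these shifts was not tested.

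The replicate numbers did not pair the libraries: deviations from the group means of same-numbered libraries correlated at -0.102 to 0.0952. With the replicate number as a block, 2 members were called higher and 4 lower in SW620, and 12 higher and 1 lower between the lines. Over all genes the block gave 2271 higher and 1384 lower in SW620.

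With 2 libraries per group and 4 residual degrees of freedom, genes near 0 counts gave wide intervals. For 26 members with 0 counts in all libraries, no difference was detectable at this depth.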
